A study of Macaca mulatta with 5 samples.

Results

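Cadherins are calcium-dependent adhesion proteins at the cell surface, and 34 genes of the superfamily were followed here by gene symbol. They comprise the type I classical cadherins CDH1, CDH2 and CDH4, 12 type II and related cadherins, the lipid-anchored CDH13, CDH23 and CDHR3, 8 protocadherins, the giant FAT1 to FAT4 with their partner DCHS1, and the planar polarity receptors CELSR1 to CELSR3. The 34 were taken from 21761 measured genes. The feature tables held 33 of the 34 by symbol, and PCDH20 was matched through its Ensembl identifier in a table that pairs identifiers with symbols. None of the 34 took part in grouping or naming the nuclei. The classes were built from other genes of the same nuclei.

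The study measured RNA in single nuclei from frozen claustrum, the thin sheet of grey matter between insular cortex and putamen, of 2 healthy male rhesus macaques. The groups are a 17-month-old animal with 2 libraries and an 18-month-old animal with 3 libraries, neither with any treatment or genetic change. Each age is therefore 1 animal, age and animal cannot be told apart, and p-values measure the spread between libraries, which may be technical. Values per library are given throughout in the order 17-month libraries 1 and 2, then 18-month libraries 1, 2 and 3.

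The libraries held between 6659 and 9540 barcodes and between 47512670 and 70896967 transcript counts (unique molecular identifiers, UMIs), with medians of 2976 to 3485 UMIs per nucleus. Of 40005 barcodes 37091 nuclei were kept, and 197 barcode sequences occurred in more than 1 library. The classes were 5103 claustrum-like excitatory nuclei, 2265 THEMIS-type (layer 5/6 intratelencephalic), 803 layer 6 corticothalamic-like and 243 layer 4/5 IT-like nuclei; 131 PVALB-type, 387 SST-type, 751 VIP-type and 667 LAMP5-type interneurons; 1755 striatal projection neurons; and 14513 oligodendrocytes, 2066 oligodendrocyte precursors, 1188 astrocytes, 2830 microglia, 526 endothelial and 173 mural or fibroblast nuclei. The claustrum-like nuclei carried their markers: NR4A2 stood at 251 CPM (counts per gene scaled to 1 common total for every sum of nuclei) against 32 CPM in THEMIS-type nuclei, and GNB4 at 200 against 22.3 CPM. PVALB itself reached only 11.1 CPM in PVALB-type nuclei, which were named from the other markers of that type, and DRD1 reached 15 CPM in D1-type striatal nuclei. Markers of other cell types were counted in every class. The excitatory marker SLC17A7 lay between 33.3 and 64.1 CPM in the glial and vascular classes beside 80.5 to 95.6 CPM in the excitatory classes. In interneurons and striatal nuclei it lay between 9.23 and 19.3 CPM. The myelin gene MBP lay between 31.8 and 135 CPM in neurons beside 6182 CPM in oligodendrocytes. The source of these counts was not tested.

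Classical cadherins bind the same or related cadherins on the facing membrane through their outermost domain and hold on to the actin skeleton through catenins inside the cell. Type II cadherins are known for combinatorial expression in brain nuclei and for roles in sorting neurons and matching synaptic partners, and N-cadherin (CDH2) is a standing component of synaptic junctions. Protocadherins of the delta groups lack the catenin anchor and signal through other partners, among them the WAVE complex that builds branched actin. FAT4 and DCHS1 form a receptor and ligand pair between neighbouring cells, while CDH23 and PCDH15 together make the tip link of inner ear hair cells.

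Across 16 neuronal, glial and vascular classes most members were strong in a few classes and weak elsewhere. Levels here are CPM of the summed counts of a class in a library, averaged over the libraries with at least 20 nuclei of that class, and they are compared between classes within a gene and never between genes. A member was counted as on in a class where its mean reached 25 CPM and 25% of its highest class. By this rule 28 members were on somewhere, each class had a mean of 10.0 members on (SD 2.78), and the 16 classes showed 15 distinct combinations. Microglia had the fewest, 3 (CDH2, CDH13 and CDH23), and THEMIS-type and layer 4/5 IT-like neurons the most, 13. Layer 4/5 IT-like neurons had sums in 3 libraries only. At limits of 10 CPM and 10% VIP-type interneurons had the most, 21, and at 50 CPM and 50% layer 6 corticothalamic-like neurons, precursors and astrocytes, 9 each, while microglia had the fewest at both, 12 and 1. At limits of 25 CPM and 25% the D1-type and DRD2 striatal nuclei alone shared a combination, the same 11 members. The most different pair was SST-type interneurons against endothelial cells, which differed in 16 members. CDH2 was the only member on in all 16 classes, and its class means spanned from 175 CPM in mural cells to 668 CPM in SST-type interneurons. It was 1 of 5 such members at the lower limits, and at the higher limits there was none.

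**Figure D1:**
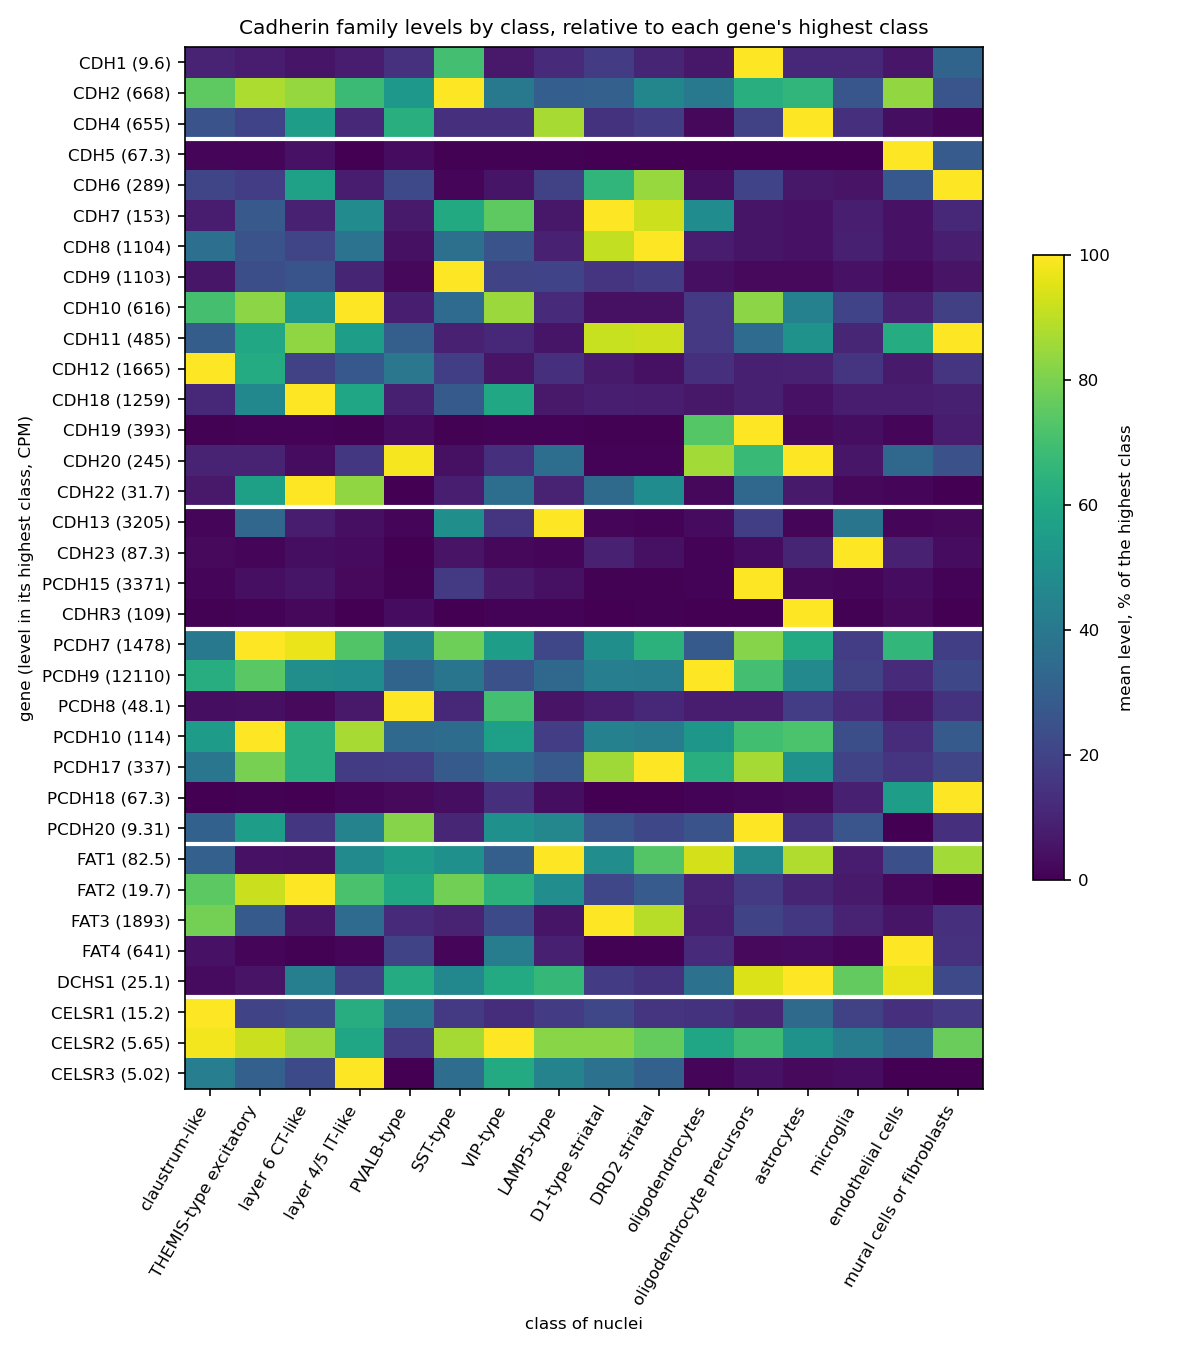
Heat map of the 34 genes (rows) in 16 classes of nuclei (columns), each cell giving the mean CPM over libraries as a percent of the gene's highest class, with that highest CPM printed beside the gene. CDHR3 is filled almost only in astrocytes (109 CPM) and CDH23 in microglia (87.3 CPM). CDH5 is filled in endothelial cells (67.4 CPM) and less in mural cells (19.3 CPM). CDH2 is filled across the classes, while PCDH9 falls from oligodendrocytes (12110 CPM) to endothelial cells (1444 CPM).

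A further 5 members stood at the opposite end from CDH2, on in 1 class each at limits of 25 CPM and 25%. These were CDH5 in endothelial cells, CDH23 in microglia, CDHR3 and DCHS1 in astrocytes and PCDH15 in oligodendrocyte precursors. For DCHS1 this depended on the limit, since astrocytes stood at 25.2 CPM and endothelial cells at 24.3 CPM. At limits of 10 CPM and 10% CDH5 was on in mural cells too, and PCDH15 in SST-type interneurons (578 CPM). CDH23 and CDHR3 were still on in 1 class at those limits. The 6 members that were on nowhere were low in every class: CDH1 (E-cadherin of epithelia) reached 9.60 CPM at most, PCDH20 9.31 CPM, FAT2 19.7 CPM, CELSR1 15.3 CPM, CELSR2 5.65 CPM and CELSR3 5.02 CPM. CELSR3 and CELSR2, known for guiding axon tracts in the developing brain, were thus at or under 6 CPM in all 16 classes.

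Excitatory and inhibitory neurons, each summed over all their classes, differed in members of several subgroups. Claustrum-like nuclei made up 5103 of the 8469 excitatory nuclei, so they weigh most in the excitatory sums. Single classes could run against the direction of the sums, as given below for FAT3 and CDH13. FAT3, a giant cadherin known for shaping dendrites, and the type II cadherins CDH12, CDH11, CDH6 and CDH10 were higher in excitatory neurons, as was the delta-1 protocadherin PCDH9. CDH13, CDH9, CDH7, CDH20, FAT4, FAT1 and PCDH15 were higher in inhibitory neurons. Of 33 members tested (CDH5 was too low), 7 were higher and 11 lower in excitatory neurons with an adjusted p under 0.05 and at least a 2-fold difference, beside 14.2% of all genes tested (7.34% higher, 6.84% lower). The tests here and below are two-sided edgeR quasi-likelihood tests with library as a block and Benjamini-Hochberg adjustment over all genes tested, and a member is said to pass where it meets both thresholds. The median log2 difference was 0.28 over the tested members and 0.00 over all genes.

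CDH12 stood at 1215, 1404, 1618, 1288 and 1225 CPM in excitatory neurons of the 5 libraries and at 269, 240, 265, 273 and 287 CPM in inhibitory neurons. No excitatory library overlapped an inhibitory one. The log2 difference was 2.40 (SE 0.08, adjusted p = 4.03e-09). FAT3 gave 986, 925, 1149, 1192 and 1245 CPM in excitatory against 216, 191, 179, 230 and 161 CPM in inhibitory neurons, again without overlap (log2 difference 2.56, SE 0.14, adjusted p = 2.62e-05). Its mean in corticothalamic-like excitatory neurons nevertheless lay below all these inhibitory values. VIP-type interneurons, with a mean of 423 CPM, lay above these inhibitory values, though below all the excitatory ones. CDH11, the OB-cadherin of mesenchyme and brain, was at 207 ± 14.8 CPM (SD, n = 5 libraries, as for all means below unless stated) against 63.7 ± 9.43 CPM. CDH6 was at 65.1 against 23.0 CPM (log2 difference 1.51), CDH10 at 450 against 209 CPM (1.17) and PCDH9 at 7786 against 3539 CPM (1.19).

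CDH13 (T-cadherin), which has no cytoplasmic tail and is held in the membrane by a lipid, went the other way. Its levels were 393, 467, 316, 281 and 303 CPM in excitatory neurons and 1496, 1505, 1524, 1417 and 1380 CPM in inhibitory neurons, so that every inhibitory library lay above every excitatory one (log2 difference -2.02, SE 0.09, adjusted p = 5.77e-07). This held for the sums and not for every class. PVALB-type interneurons, with a mean of 45.25 CPM, lay below all these excitatory values. The mean of THEMIS-type excitatory neurons lay above these excitatory values, though below all the inhibitory ones. FAT4 was at 24.3 ± 3.91 against 86.5 ± 17.0 CPM (-1.77), CDH9 at 145 ± 34.6 against 457 ± 74.9 CPM (-1.62) and PCDH15 at 91.5 ± 37.1 against 253 ± 19.7 CPM (-1.48). The smaller differences in the same direction were CDH7 (-1.44), CDH20 (-1.15) and FAT1 (-1.05). The remaining 5 that passed, PCDH18, DCHS1, CELSR1, PCDH8 and CDH1, did so below 20 CPM in both groups. FAT1 fell under the 2-fold limit without the first 17-month library, at -0.94.

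Claustrum-like neurons differed from the other excitatory neurons of the dissection in both directions, with more members lower than higher. CDH13, CDH18, CDH9, CDH11, CDH7, CDH22, PCDH7 and PCDH15 were lower in them, and the FAT family members FAT1, FAT3 and FAT4 were higher. Of 33 members tested (all but PCDH18), 4 passed as higher and 10 as lower, beside 6.76% of all genes tested in either direction, 2.86% higher and 3.91% lower. The median log2 difference was -0.28 over the tested members and 0.00 over all genes.

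CDH13 was at 53.6, 66.6, 43.3, 39.3 and 37.6 CPM in claustrum-like neurons and had a mean of 842 ± 156 CPM in the other excitatory neurons. The 2 ranges were far apart, and the log2 difference of -4.15 (SE 0.09, adjusted p = 3.69e-08) was the largest among the members. CDH18, a type II cadherin of the nervous system, stood at 163, 141, 112, 127 and 171 CPM in claustrum-like and at 660, 749, 713, 780 and 830 CPM in other excitatory neurons. Every claustrum-like library was below every other one (log2 difference -2.41, SE 0.10, adjusted p = 4.85e-06). CDH9 was at 67.7 ± 18.9 against 265 ± 52.5 CPM (-2.0), CDH22 at 2.17 ± 0.38 against 22.0 ± 5.10 CPM (-3.32), PCDH7 at 595 ± 210 against 1464 ± 212 CPM (-1.37) and CDH11 at 143 ± 6.97 against 311 ± 36.9 CPM (-1.12). CDH7 (-1.62) and PCDH15 (-1.58) also passed, but their groups overlapped between libraries.

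FAT3 was at 1274, 1238, 1527, 1755 and 1684 CPM in claustrum-like neurons and at 561, 491, 405, 461 and 354 CPM in the other excitatory neurons. All claustrum-like libraries were higher (log2 difference 1.71, SE 0.21, adjusted p = 3.26e-03). FAT1, whose protein is known for control of actin and of Hippo signalling, was at 22.4, 21.4, 26.4, 25.7 and 30.6 CPM against 5.93, 9.82, 3.80, 5.81 and 3.03 CPM, also without overlap (2.16, SE 0.32, adjusted p = 5.98e-03). Layer 4/5 IT-like neurons, a small part of the other excitatory neurons, were not compared separately. Both FAT1 and FAT3 were on in them, with FAT1 at 25 CPM or more. FAT4 was at 32.5 ± 5.46 against 11.3 ± 2.73 CPM (1.5). CELSR1 passed below 20 CPM (15.3 against 3.31 CPM), as did DCHS1 and CDHR3 in the lower direction. CDH12, at 1665 against 844 CPM, met the p threshold and not the 2-fold one (log2 difference 0.97).

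**Figure D2:**
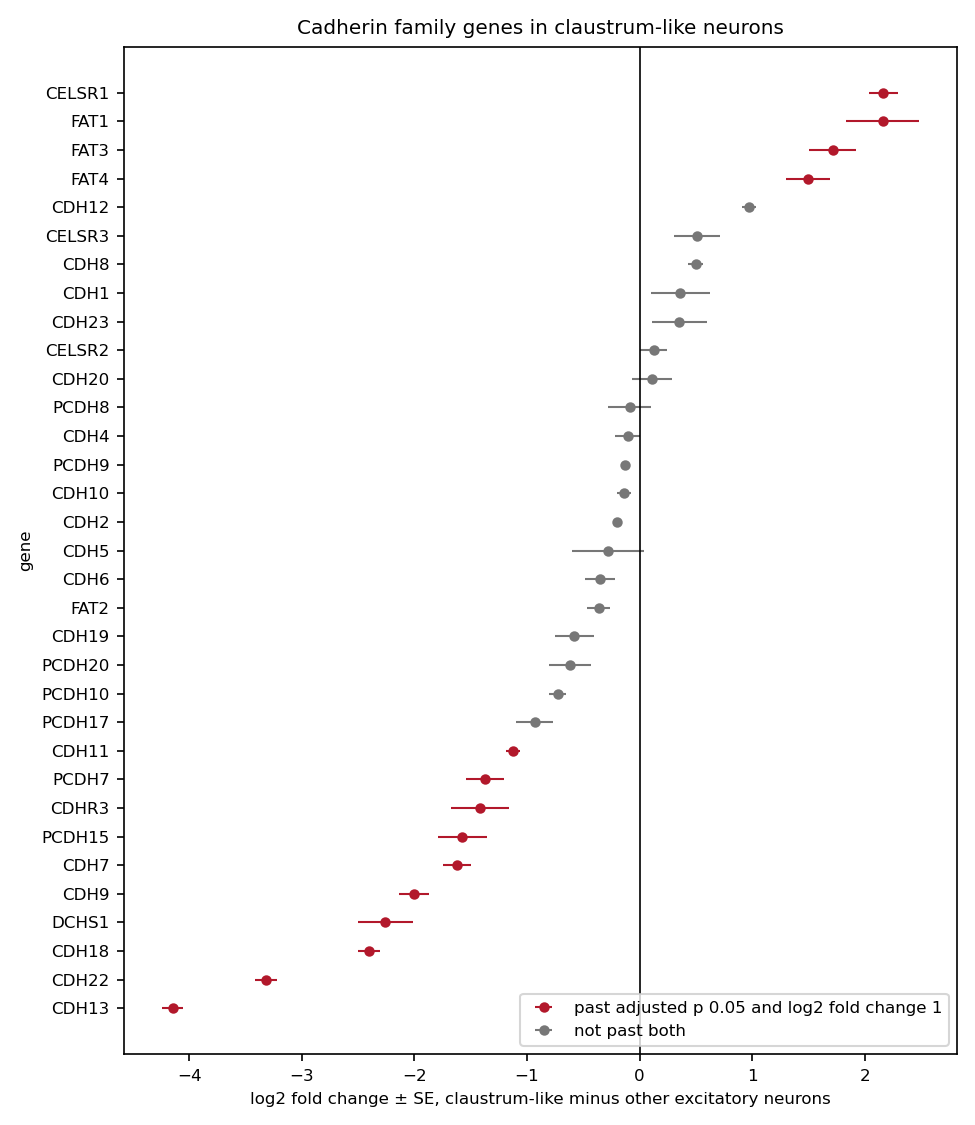
Log2 difference between claustrum-like and other excitatory neurons for the 33 members tested (points, with SE as bars, n = 5 libraries), ordered by size; red points pass both thresholds. CELSR1, FAT1, FAT3 and FAT4 are the 4 red points above 0, and CDH13 at -4.15 lies lowest of the 10 below.

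The comparison group mixes layer types, so claustrum-like neurons were also set against THEMIS-type and layer 6 corticothalamic-like neurons separately. Against THEMIS-type neurons 4 of 32 members passed as higher and 10 as lower, beside 6.57% of all genes (3.03% higher, 3.54% lower). Against layer 6 corticothalamic-like neurons 6 passed as higher and 12 as lower, beside 10.9% (5.26% and 5.64%). Between THEMIS-type and layer 6 corticothalamic-like neurons 7 passed in each direction, beside 6.59% (3.18% and 3.42%). These 3 comparisons share samples.

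Several type II cadherins were graded over the 3 excitatory classes. CDH12 was highest in claustrum-like neurons (1665 ± 216 CPM), lower in THEMIS-type neurons (978, 1141, 1096, 1019 and 901 CPM) and lowest in layer 6 corticothalamic-like neurons (404, 353, 237, 359 and 248 CPM). No library of one class overlapped the next. The step from claustrum-like to THEMIS-type neurons was 0.69 in log2 (SE 0.14, under the 2-fold limit) and from THEMIS-type to layer 6 corticothalamic-like neurons 1.68 (SE 0.15, adjusted p = 2.38e-05).

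CDH18 ran the opposite way. Its levels were 143 ± 24.5 CPM in claustrum-like neurons, 594, 622, 582, 547 and 595 CPM in THEMIS-type neurons and 1033, 1098, 1344, 1316 and 1503 CPM in layer 6 corticothalamic-like neurons. The steps were -2.07 (SE 0.12, adjusted p = 6.16e-07) and -1.10 (SE 0.12, adjusted p = 8.14e-05), and the classes did not overlap.

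CDH13 peaked in the middle class, at 1032, 1415, 966, 855 and 1006 CPM in THEMIS-type against 257 ± 87.8 CPM in layer 6 corticothalamic-like neurons (log2 difference 2.02, SE 0.21). FAT3 fell in steps from 1496 ± 234 through 537 ± 70.2 to 117 ± 60.6 CPM, and both steps passed (1.49 and 2.24). Layer 6 corticothalamic-like neurons had the highest CDH4 (R-cadherin) of the 3, at 366 ± 51.4 CPM against 169 ± 46.3 in claustrum-like and 132 ± 16.6 CPM in THEMIS-type neurons, and the highest CDH6, at 165 ± 29.1 against 59.8 ± 22.2 and 51.9 ± 30.3 CPM. In both genes the 2 lower classes overlapped and did not differ past the thresholds (log2 difference 0.32 for CDH4 and 0.23 for CDH6). CDH20 was lower in layer 6 corticothalamic-like neurons, at 8.05 CPM, than in claustrum-like and THEMIS-type neurons, at 23.5 and 23.4 CPM. FAT1 stood at 4.01 CPM in THEMIS-type and 3.69 CPM in layer 6 corticothalamic-like neurons, which overlapped (log2 difference 0.17, SE 0.45).

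**Figure D3:**
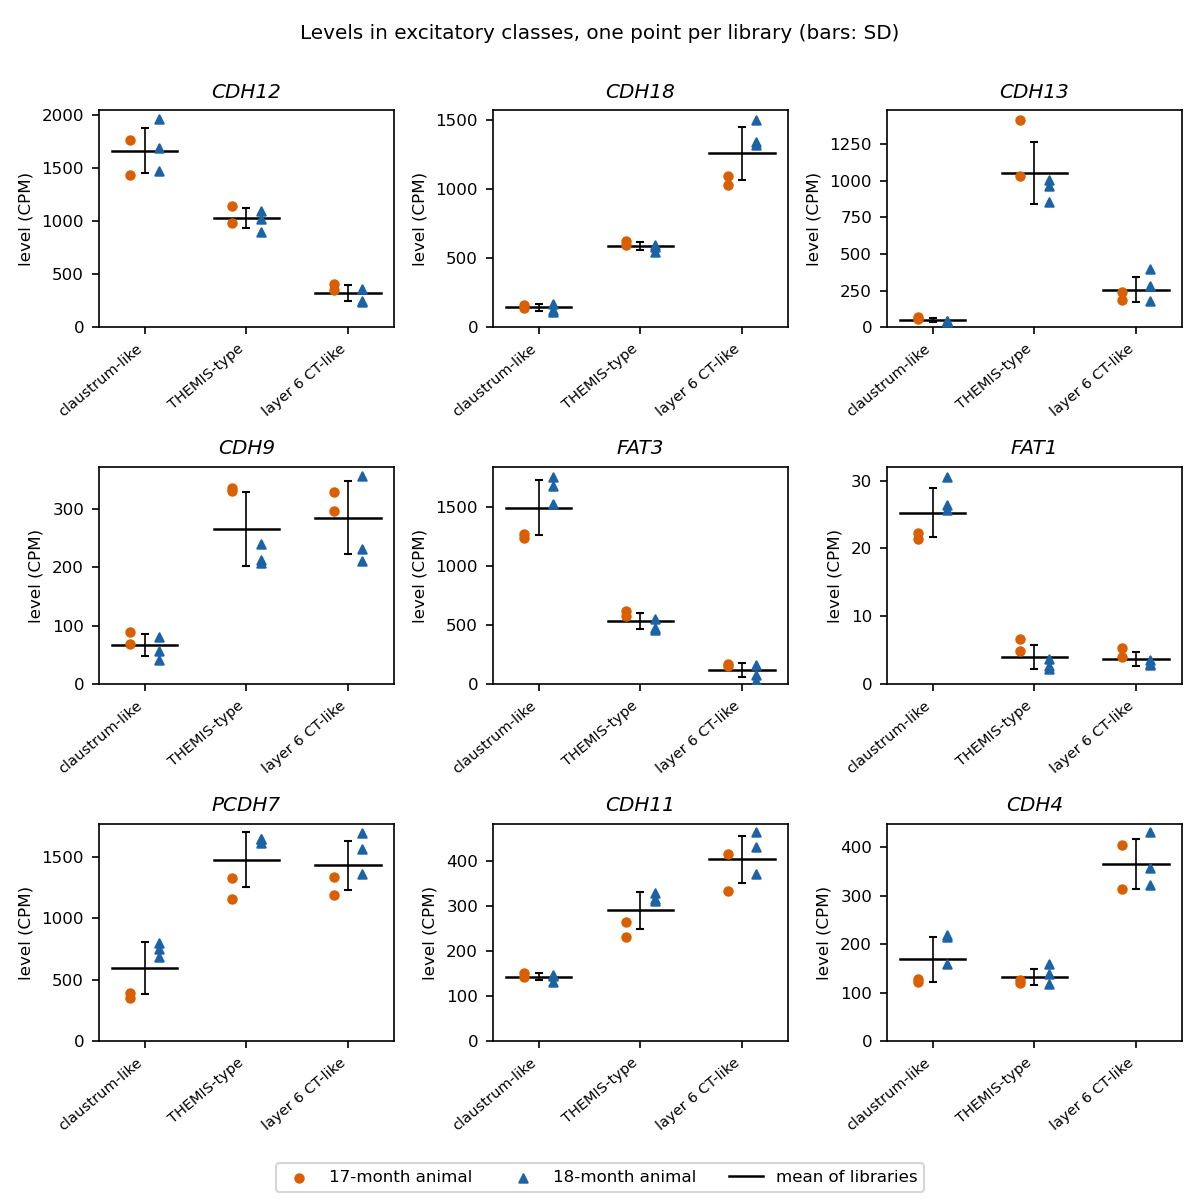
CPM of 9 members in claustrum-like, THEMIS-type and layer 6 corticothalamic-like neurons, 1 point per library (orange circles 17-month, blue triangles 18-month animal), with the mean as a line and the SD as bars. CDH12 and FAT3 step down from left to right, CDH18 steps up, and CDH13 is high only in the middle class (1055 CPM).

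Within the claustrum-like neurons the members that differed by 2-fold or more included FAT1, CELSR1, CDH20, CDH6 and CDH9. The 3 clusters held 1783, 1699 and 1621 nuclei and are called E1, E2 and E3. Of 29 members tested, 3 were higher and 1 lower in E1 than the mean of the other clusters, beside 2.38% of all genes (1.18% higher, 1.19% lower). In E2 2 were higher and 1 lower, beside 1.94% (1.23% and 0.705%), and in E3 1 was higher, beside 2.04% (0.736% and 1.31%). With no fold limit 10 members had an adjusted p under 0.05 in E1, beside 22.9% of all genes, 11 in E2, beside 24.7%, and 6 in E3, beside 20.4%. E1 had more FAT1 (44.0 ± 9.72 against 17.2 ± 3.76 CPM, log2 difference 1.34, SE 0.10, adjusted p = 3.42e-08) and more CELSR1 (25.1 ± 6.62 against 10.6 ± 1.07 CPM, 1.17), both without overlap between libraries. CDH2 was lower in E1, at 325 ± 7.88 against 592 ± 21.2 CPM, without overlap and under the 2-fold limit (-0.92, SE 0.05, adjusted p = 9.56e-13), as was CDH8, at 259 ± 8.21 against 471 ± 103 CPM (-0.88). E2 had more CDH20 (35.5 ± 6.60 against 16.5 ± 5.30 CPM, 1.2) and more CDH6 (82.2 ± 25.4 against 46.6 ± 24.8 CPM, 1.01), the latter with overlap. CDH6 in E2 dropped under the 2-fold limit without the first 18-month library (0.86) and without the second (0.93).

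CDH9, whose protein is known at the synapses between mossy fibres and pyramidal cells of the hippocampus, was highest in E3 and lowest in E1. It stood at 131 ± 48.6 CPM in E3 against 36.9 ± 10.7 CPM over the other clusters, without overlap (log2 difference 1.84, SE 0.25, adjusted p = 8.73e-04). In E1 it was at 28.1 ± 16.8 against 88.4 ± 26.5 CPM, with overlap (-1.54, SE 0.30, adjusted p = 5.50e-03). In E2 it was at 45.7 ± 6.70 CPM and did not pass. CDH22 passed in E1 and E2 below 5 CPM.

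The main clusters of THEMIS-type neurons, E4 and E5, differed in 6 of 23 members tested, beside 3.02% of all genes (1.63% higher, 1.39% lower). CDH20 was at 39.3 ± 8.05 CPM in E4 and 3.21 ± 1.45 CPM in E5 (log2 difference 3.65, SE 0.16, adjusted p = 2.04e-14). CDH7 (61.6 against 19.1 CPM, 1.68) and CDH8 (366 against 176 CPM, 1.08) were higher in E4 as well. E5 had more PCDH15 (282 ± 53.3 against 51.7 ± 31.3 CPM, -2.50) and more CDH13 (1767 ± 226 against 554 ± 175 CPM, -1.69). FAT4 passed below 20 CPM. CDH8 in E4 was at 0.99 without the third 18-month library, just under the 2-fold limit.

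Interneuron classes differed in members of most subgroups, among them CDH9, CDH18, CDH20, CDH13, PCDH15 and FAT4. Each class was compared with the mean of the other 3 on the log scale, so that a class can pass although its CPM lies near the arithmetic mean of the others. Of 23 members tested, 7 were higher and 7 lower in PVALB-type neurons, beside 7.74% of all genes (3.61% higher, 4.14% lower). The counts were 7 and 5 in SST-type neurons, beside 6.28% (3.42% and 2.86%), 8 and 3 in VIP-type neurons, beside 5.34% (3.4% and 1.94%), and 4 and 8 in LAMP5-type neurons, beside 5.91% (3.26% and 2.66%). The 11 not tested were CDH1, CDH5, CDH19, CDH22, CDH23, CDHR3, PCDH18, PCDH20 and CELSR1 to CELSR3. The median log2 difference of the tested members was 0.00, 0.39, 0.29 and -0.42 in the 4 classes, against -0.01 to 0.01 over all genes.

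PVALB-type neurons, named for a type that includes fast-spiking basket and chandelier cells, were a small cluster of 131 nuclei with sums in 4 libraries. They had more CDH20, at 259, 241, 194 and 273 CPM, than the other classes, where SST-type neurons gave 15.7, 7.12, 11.9, 8.31 and 11.6 CPM. The difference from the mean of the other classes was 2.84 in log2 (SE 0.15, adjusted p = 5.62e-24), with no overlap. CDH12 (658 ± 148 against 212 ± 13.6 CPM, 1.81), CDH11 (147 ± 39.8 against 41.4 ± 9.96 CPM, 1.92), PCDH8 (2.72), CDH6 (1.99), CDH4 (1.33) and FAT4 (1.30) were higher too. PVALB-type neurons had less CDH13 (45.3 ± 33.8 against 1778 ± 63.5 CPM, -4.95), PCDH15 (16.8 ± 10.6 against 325 ± 25 CPM, -4.03) and CDH9 (24.4 ± 17.6 against 517 ± 81.8 CPM, -3.89), and less CDH8, CDH7, CDH10 and CDH18.

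A further cluster of 452 interneurons, I1, scored highest on PVALB-type markers and was left unnamed, since no marker of that type and the mural marker RGS5 were among its leading genes. Against the mean of the 4 named classes 2 of 23 members were higher and 7 lower in it, beside 5.28% of all genes (2.52% higher, 2.77% lower). CDH9 was at 638 ± 123 CPM in I1 (log2 difference 1.69, SE 0.07, adjusted p = 8.62e-31) and CDH7 at 71.3 ± 20.5 CPM (1.14). FAT4 (2.98 CPM, -4.45), CDH6 (1.79 CPM, -3.59), FAT1 (3.86 CPM, -3.37), CDH4 (-2.40), PCDH8 (-2.24), FAT3 (-2.05) and CDH20 (-1.63) were lower. Counting I1 as PVALB-type turned the direction of CDH9, CDH7, CDH6, CDH4 and FAT4 in PVALB-type neurons and 7 members then passed in place of 14, so the PVALB-type values hold for the small cluster alone. The share of all genes that passed with that setting is not given here. With the same setting CDH20 (0.80), CDH13 (-0.54), PCDH15 (-0.85), CDH8 (-0.88) and PCDH8 (0.43) in PVALB-type neurons no longer passed. CDH8 (0.70) and FAT1 (-0.37) in VIP-type, FAT3 (-0.85) in LAMP5-type and PCDH8 (-0.86), CDH4 (-0.93) and PCDH7 (0.97) in SST-type neurons also lay under the 2-fold limit. CDH7 in I1 was at 0.98 without the third 18-month library.

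SST-type neurons, which target distal dendrites, led in CDH9. Its levels were 1271, 1029, 920, 1242 and 1054 CPM there, against 173 ± 50.9 CPM over the other classes (log2 difference 3.35, SE 0.08, adjusted p = 1.63e-42). No library overlapped. PCDH15 (578 ± 59.0 against 147 ± 25.6 CPM, 2.79), CDH8 (407 ± 46.6 against 153 ± 17.7 CPM, 1.90), CDH2 (668 ± 83.1 against 268 ± 21.7 CPM, 1.33), CDH7 (2.04) and PCDH7 (1.05) were higher. CDH13 passed as higher (1.98) at 1600 ± 157 CPM although LAMP5-type neurons were higher still, and it lay above the arithmetic mean of the other classes in 4 of 5 libraries. FAT4 (11.9 ± 3.56 against 157 ± 30.8 CPM, -3.38), CDH6 (-3.15), CDH20 (-2.92), PCDH8 (-1.63) and CDH4 (-1.59) were lower. PCDH7 was under the 2-fold limit without the second 17-month library, at 0.91.

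VIP-type neurons, which mostly contact other interneurons, led in CDH18, CDH10 and FAT4. CDH18 was at 796, 749, 777, 657 and 779 CPM against 190 ± 6.90 CPM over the other classes (log2 difference 2.30, SE 0.07, adjusted p = 2.70e-36), without overlap. CDH10 was at 518, 471, 540, 566 and 519 CPM against 123 ± 27.6 CPM (2.46, SE 0.13). FAT4 was at 270 ± 42.6 against 61.9 ± 10.6 CPM (2.56), FAT3 at 423 ± 67.5 against 167 ± 39.7 CPM (1.38), and CDH7 at 115 ± 27.3 against 40.4 ± 8.61 CPM (2.44). PCDH8 (1.91), CDH8 (1.17) and, in 4 of 5 libraries, PCDH15 (1.12) also passed as higher. For PCDH15 the CPM was 245 against an arithmetic mean of 270 CPM over the other classes. CDH12, at 89.9 ± 32.3 against 370 ± 76.1 CPM (-1.99), CDH4 (-1.68) and FAT1 (-1.09) were lower. FAT1 no longer passed without the first 17-month library (-0.83), the second (-0.86) or the second 18-month library (-1.12, adjusted p = 0.0637).

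LAMP5-type neurons, which include neurogliaform cells, had the highest CDH13 of all 16 classes. It was at 2940, 3320, 3471, 3107 and 3187 CPM against 769 ± 105 CPM over the other interneuron classes (log2 difference 3.33, SE 0.12, adjusted p = 4.97e-12). CDH4 was at 558, 613, 586, 556 and 531 CPM against 179 ± 32.7 CPM (1.93, SE 0.10), and CDH6 (1.76) and FAT1 (82.5 ± 16.9 against 36.4 ± 5.81 CPM, 1.2) were higher. PCDH8 (-3.0), CDH7 (9.68 against 77.9 CPM, -2.29), CDH18 (87.9 against 435 CPM, -1.81), CDH11 (-1.47), PCDH7 (314 ± 65.7 against 893 ± 63.9 CPM, -1.44), FAT3 (-1.35), CDH10 (-1.25) and PCDH10 (-1.12) were lower. LAMP5-type neurons also had the fewest members on of any neuronal class, 7.

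**Figure D4:**
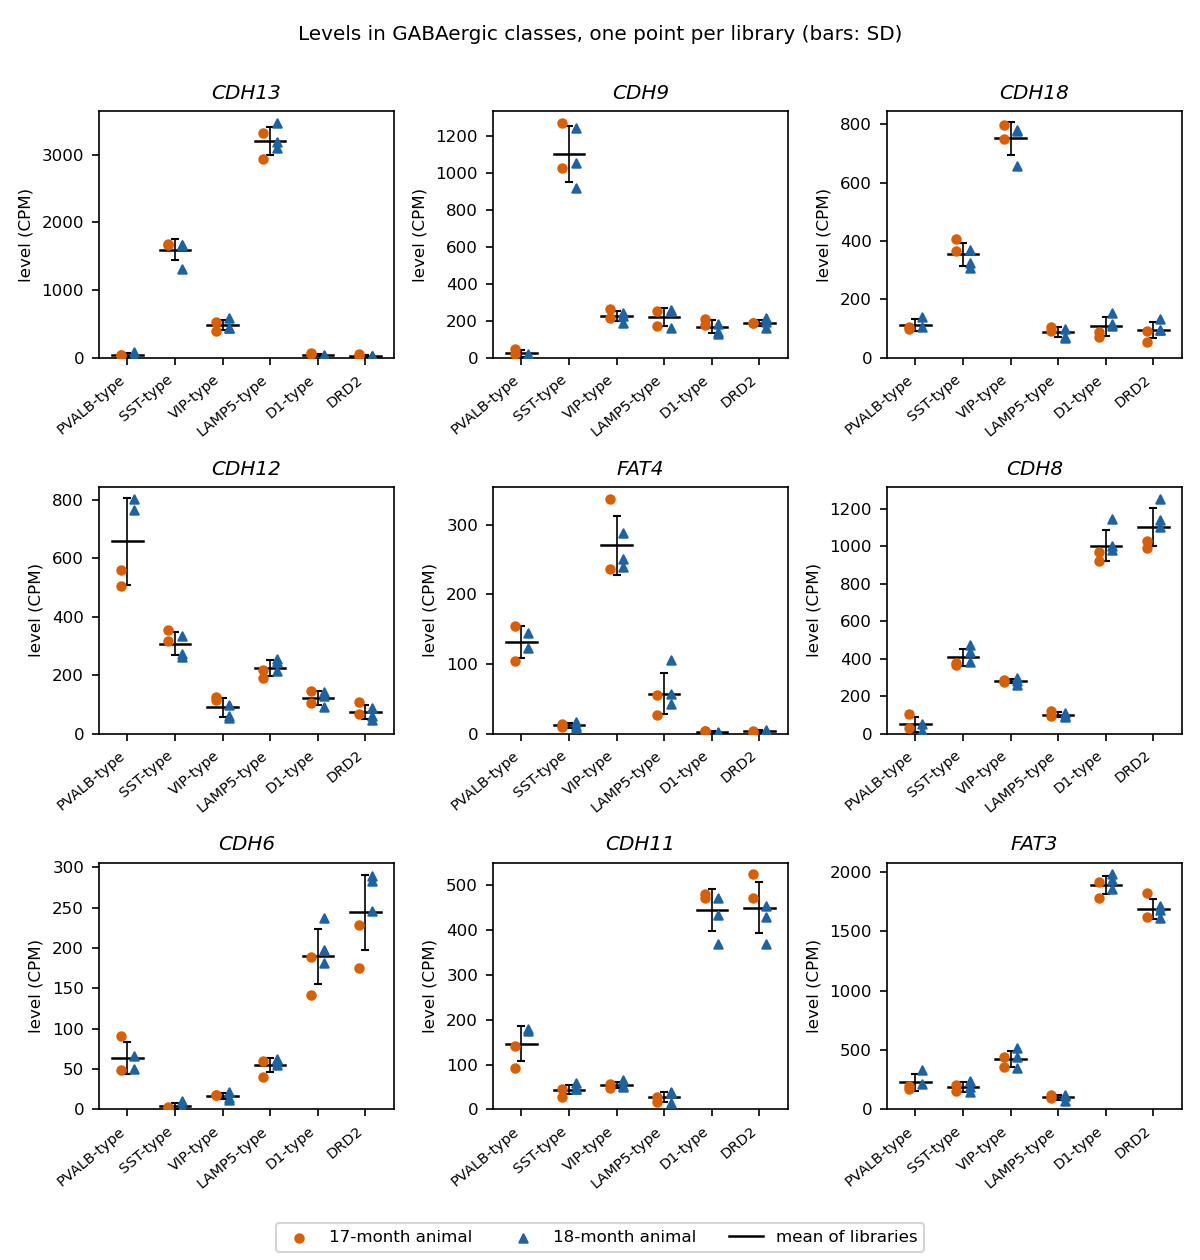
CPM of 9 members in the 4 interneuron classes and the D1-type and DRD2 striatal nuclei, 1 point per library (orange circles 17-month, blue triangles 18-month animal; PVALB-type has 4), with the mean as a line and the SD as bars. CDH13 climbs to 3205 CPM in LAMP5-type neurons, CDH9 peaks in SST-type (1103 CPM), CDH18 in VIP-type (752 CPM), and FAT3, CDH8, CDH6 and CDH11 are highest in the striatal nuclei.

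The dissection also held striatal projection neurons, GABAergic cells that send long axons out of the striatum. Of 30 members tested, 8 were higher in them and 12 lower than in interneurons, beside 20% of all genes (9.12% higher, 10.9% lower). FAT3 was at 1868, 1703, 1719, 1807 and 1826 CPM against 195 ± 27.9 CPM (log2 difference 3.42, SE 0.08, adjusted p = 1.02e-13), and the groups were far apart. CDH6 was at 209, 158, 239, 226 and 264 CPM against 23.0 ± 3.64 CPM (3.47, SE 0.17), CDH11 at 446 ± 49.8 against 63.7 ± 9.43 CPM (3.01) and CDH8 at 1059 ± 92.5 against 248 ± 24.8 CPM (2.31). PCDH17, a delta-2 protocadherin known from corticobasal circuits, was at 314 ± 59.6 against 111 ± 14.3 CPM (1.71), and CDH7 was at 147 ± 35.5 against 60.9 ± 4.82 CPM (1.51).

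CDH13 had the largest difference downwards, at 63.5, 42.8, 22.6, 27.8 and 37.4 CPM in striatal neurons against 1464 ± 62.2 CPM (-5.12, SE 0.25, adjusted p = 4.24e-05). FAT4 (3.03 against 86.5 CPM, -4.61), CDH20 (2.33 against 52.5 CPM, -4.46), PCDH15 (19.8 against 253 CPM, -3.43) and CDH10 (27.7 against 209 CPM, -2.88) were lower as well, followed by CDH18 (-1.37), CDH12 (-1.28) and CDH9 (-1.12). Striatal clusters S6 and S8 came mostly from the second 18-month library (91 of 106 and 65 of 72 nuclei). Without them 21 members passed, a count given without the share of all genes in that fit.

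No member passed between D1-type and DRD2 striatal nuclei, 771 and 984 in number. The DRD2 nuclei carried 2 of 4 fixed markers of indirect pathway neurons and are called by that gene. Of 21 members tested, none passed with edgeR's quasi-likelihood test or with DESeq2, beside 0.947% of all genes (0.581% higher, 0.366% lower). With no fold limit, 13 of the 21 had an unadjusted p under 0.05, beside 17.1% of all genes, and 11 an adjusted p under 0.05, beside 7.22%. The largest absolute log2 difference was 0.86 (CDH23). CDH12 was 0.74 higher in D1-type nuclei (122 against 73.9 CPM) and CDH2 was 0.63 lower (205 against 307 CPM), and the libraries of both genes overlapped.

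Among glial and vascular classes, several members were nearly restricted to 1 class. Each class was compared with the mean of the other 5 on the log scale, so that a class can pass although its CPM lies below their arithmetic mean. Of 29 members tested (PCDH20, FAT2 and CELSR1 to CELSR3 were too low), 6 were higher and 6 lower in oligodendrocytes, beside 19.6% of all genes (8.02% higher, 11.6% lower). The counts were 13 and 2 in precursors, beside 17.7% (9.68% and 8%), 8 and 6 in astrocytes, beside 18% (11.5% and 6.5%), and 2 and 12 in microglia, beside 21.6% (10.4% and 11.2%). They were 5 and 8 in endothelial cells, beside 24.5% (14.8% and 9.65%), and 4 and 6 in mural cells or fibroblasts, beside 8.06% (5.55% and 2.51%). The median of the tested members was 0.81 in precursors and 0.67 in astrocytes, and between -0.38 and -0.71 in the other classes, while that of all genes lay between -0.13 (mural cells) and 0.01. CDH12, high in excitatory neurons, lay between 119 and 260 CPM in all 6 classes, beside the SLC17A7 levels of 33.3 to 64.1 CPM there, and the part of RNA from neurons in such values was not tested.

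In oligodendrocyte precursors PCDH15 was at 3130, 3093, 3452, 3457 and 3721 CPM, against 61.3 ± 25.3 CPM over the other classes. No library overlapped, and the log2 difference was 6.11 (SE 0.22, adjusted p = 1.75e-15). CDH23, the tip link partner of PCDH15 in the ear, was at 2.83 CPM in the same class. The second precursor gene was CDH19, a cadherin of the glial and Schwann cell lineage, at 393 ± 93.0 CPM against 72.6 ± 6.59 CPM (4.18, SE 0.11). CDH13 (589 ± 49.8 against 309 ± 24.9 CPM, 2.56), CDH10 (510 ± 32.2 against 134 ± 26.7 CPM, 2.33), PCDH17 (1.72), PCDH7 (1212 ± 131 against 582 ± 48.1 CPM, 1.49), PCDH9 (1.45), FAT3 (1.26), CDH20 (1.22) and PCDH10 (1.19) were higher. CDH4 also passed as higher (1.47), although its 131 CPM lay below the arithmetic mean of the other classes, 167 CPM. Microglia had a higher mean than precursors for CDH13 (1243 CPM), and oligodendrocytes for PCDH9 (12110 CPM) and CDH20 (211 CPM). Astrocytes had higher means than precursors for CDH4 (655 CPM), CDH20 (245 CPM) and PCDH10 (81.6 CPM). CDH22 and CDH1 passed as higher below 20 CPM, FAT4 (-1.64) and PCDH18 (-2.37) were lower, and CDH4 no longer passed without the first 18-month library (adjusted p = 0.0533).

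Oligodendrocytes kept CDH19, at 290 ± 18.3 against 93.4 ± 21.0 CPM (log2 difference 3.65, SE 0.11, adjusted p = 2.08e-25), and stood at 37.4 CPM for PCDH15 (-1.78). Committed precursors, which lie between the 2 stages and were seen in 4 libraries, had CDH19 at 413 CPM. PCDH9 reached its highest level of all classes in oligodendrocytes, at 10210, 10620, 13360, 13100 and 13290 CPM against 4171 ± 314 CPM (2.05, SE 0.13), without overlap. CDH7 (74.4 ± 16.7 against 10.4 ± 4.92 CPM, 2.87), CDH20 (211 ± 16.2 against 116 ± 13 CPM, 1.61), FAT1 (1.46) and PCDH17 (1.12) were higher. CDH6 (-1.98), CDH11 (-1.18), PCDH18 (-3.33), CDH4 (-2.51) and CDH23 (-3.18) were lower. CDH4 did not pass without the first 17-month library (-2.05), without the first 18-month library (-2.39) or with more doublets removed (-2.15), and CDH23 did not pass in 3 of the alternatives.

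Astrocytes were the class of CDHR3, a cadherin-related protein known as a receptor on ciliated airway cells. It was at 105, 152, 133, 76.2 and 81.3 CPM against 0.74 ± 0.93 CPM over the other classes (log2 difference 8.04, SE 0.25, adjusted p = 1.58e-25). CDH4 was at 549, 823, 571, 594 and 739 CPM against 56.0 ± 11.1 CPM (4.17, SE 0.33), and neither gene overlapped. CDH20 (245 ± 32.2 against 109 ± 11.7 CPM, 1.81), FAT1 (72.7 ± 8.90 against 41.6 ± 11.5 CPM, 1.38), PCDH10 (1.12) and CDH10 (1.11) were higher, and CDH22 and PCDH8 passed below 20 CPM in 4 of 5 libraries. CDH19 (9.61 against 153 CPM, -2.52), CDH13 (46.3 against 423 CPM, -1.96), PCDH18 (-1.72), FAT4 (-1.51), CDH6 (-1.25) and CDH7 (-1.03) were lower. CDH10 lay at 0.99 without the third 18-month library, and CDH7 lost its pass without any one of 4 libraries.

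Microglia had 2 members above the other classes and 12 below. CDH13 was at 1215, 1022, 1498, 1358 and 1124 CPM against 172 ± 27.1 CPM (log2 difference 3.59, SE 0.16, adjusted p = 1.12e-14). CDH23 was at 53.3, 74.7, 99.1, 92.1 and 117 CPM against 4.86 ± 1.64 CPM (4.54, SE 0.21, adjusted p = 1.97e-19). All 5 libraries were above the other classes in both genes. CDH20 (14.8 against 158 CPM, -3.22), FAT1 (6.53 against 55.6 CPM, -3.0), FAT4 (-2.90), CDH11 (51.8 against 245 CPM, -2.13), CDH19 (-1.79), CDH6 (-1.77), PCDH15 (-1.52), PCDH7 (-1.42), PCDH9 (-1.09), CDH2 (179 ± 70.1 against 382 ± 27.9 CPM, -1.06) and PCDH17 (-1.06) were lower. CDH5 also passed as lower, at 0 CPM in microglia of all 5 libraries. PCDH15 did not pass without the first 17-month library (-1.35, adjusted p = 0.0647).

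**Figure D5:**
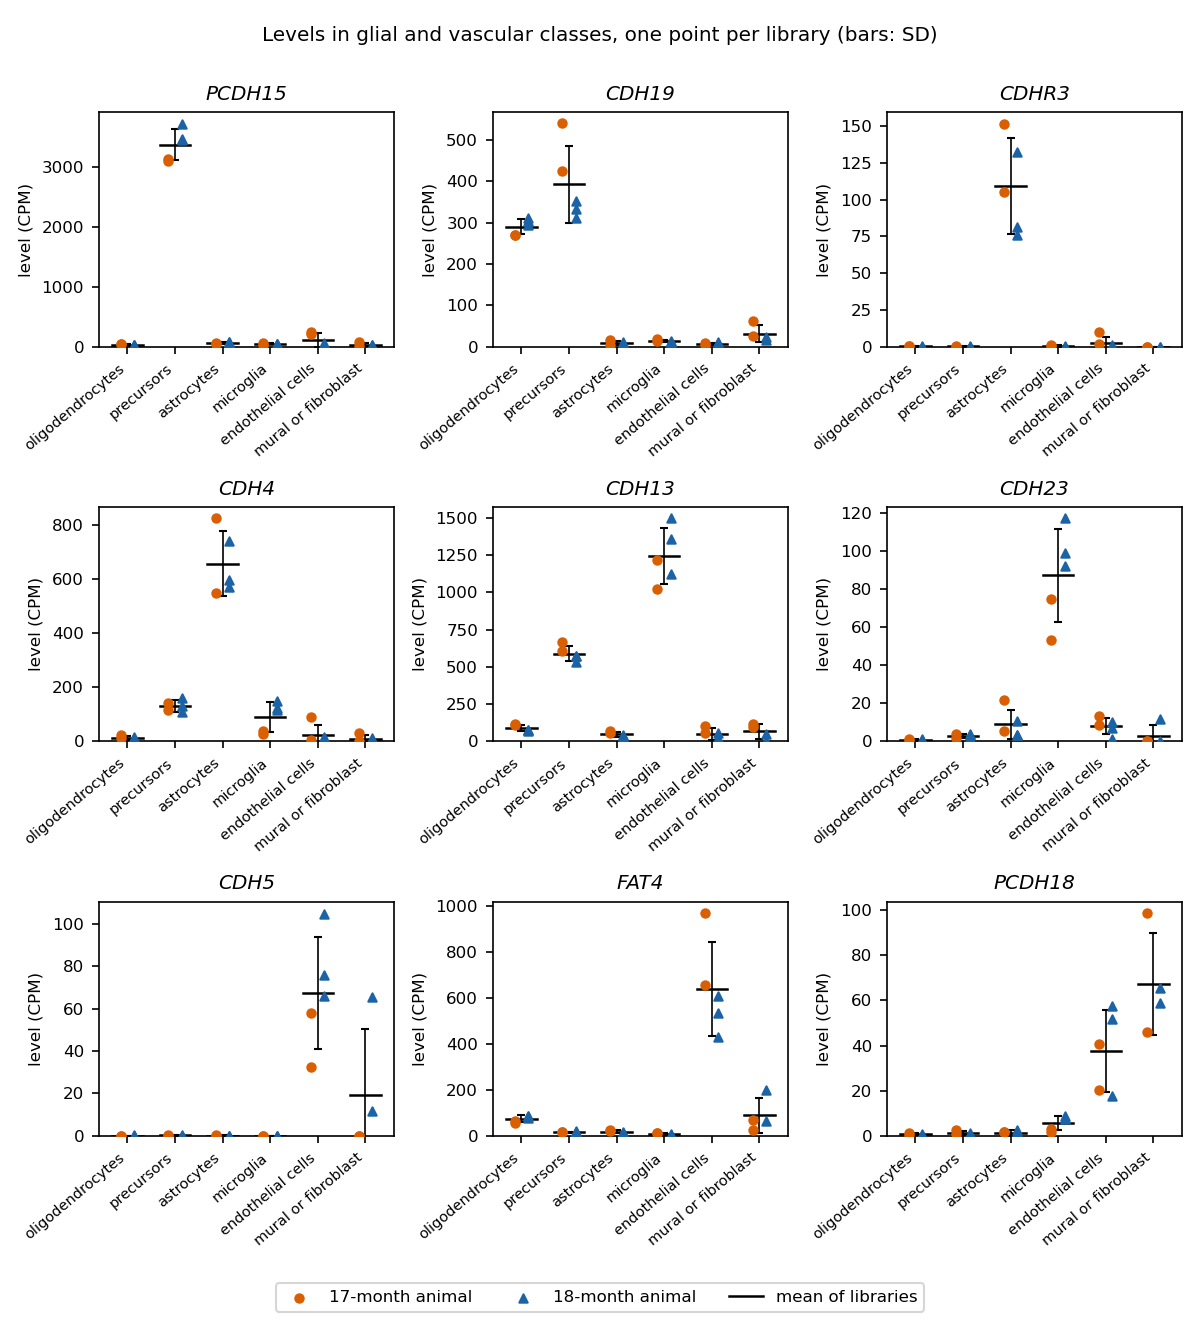
CPM of 9 members in 6 glial and vascular classes, 1 point per library (orange circles 17-month, blue triangles 18-month animal; mural cells have 4), with the mean as a line and the SD as bars. PCDH15 is high in oligodendrocyte precursors (3371 CPM), CDHR3 and CDH4 in astrocytes, CDH13 and CDH23 in microglia, CDH5 and FAT4 in endothelial cells and PCDH18 in mural cells and endothelial cells.

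Endothelial cells had CDH5 (VE-cadherin), the junction protein that seals vessels, at 32.7, 57.8, 66.0, 75.8 and 105 CPM against 3.19 ± 5.62 CPM, with overlap only through mural cells (log2 difference 7.26, SE 0.33, adjusted p = 2.69e-20). FAT4 was at 658, 973, 537, 429 and 609 CPM against 40.1 ± 14.7 CPM (4.38, SE 0.16, adjusted p = 1.93e-16) without overlap, and its known ligand DCHS1 was at 24.3 CPM. PCDH18 (37.6 ± 18.1 against 12.7 ± 7.0 CPM, 3.28) and CDH6 (79.4 ± 7.71 against 68.0 ± 25.6 CPM, 1.06) were higher, CDH6 at 0.99 without the second 17-month library. CDHR3 also passed as higher (2.40), although it was lower in CPM, at 2.74 ± 4.23 against 22.9 CPM. The mean of logs weighs classes near 0 more than an arithmetic mean does. The direction of the log2 difference was seen in 1 of 5 libraries. CDH19 (-2.84), PCDH9 (1444 ± 480 against 6430 ± 439 CPM, -1.92), CDH13 (-1.79), PCDH10 (-1.78), CDH10 (-1.72), PCDH17 (-1.42), FAT3 (-1.26) and CDH7 (-1.02) were lower, and CDH7 lost its pass without any one of 4 libraries.

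Mural cells or fibroblasts, with sums in 4 libraries, had the highest mean CDH6, CDH11 and PCDH18 of all classes. CDH6 was at 312, 259, 354 and 229 CPM against 36.9 ± 1.43 CPM (log2 difference 3.11, SE 0.20, adjusted p = 1.94e-15). CDH11 was at 455, 543, 401 and 539 CPM against 169 ± 4.59 CPM (1.44, SE 0.17), and neither overlapped with the other glial and vascular classes. Striatal neurons did overlap both, DRD2 nuclei reaching 290 CPM for CDH6 and 523 CPM for CDH11. PCDH18 was at 46.1, 98.8, 59.0 and 65.4 CPM against 10.4 ± 3.82 CPM (4.01, SE 0.47), with endothelial cells overlapping. CDH5 passed as higher (4.52) at 19.3 ± 31.2 CPM, in 2 of 4 libraries. CDH13, PCDH7, PCDH9, CDH2, CDH20 and PCDH17 were lower, with log2 differences from -1.60 to -1.08; CDH20 did not pass without the first 17-month library (-0.81), and CDH13 and PCDH17 did not pass in 2 and 3 of the alternatives.

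The 2 animals were compared within 2 cell classes. In claustrum-like neurons 7 of 33 members differed between the animals with an adjusted p under 0.05 (no fold limit), 2 higher and 5 lower in the 17-month animal, beside 12.6% of all genes (6.34% higher, 6.23% lower). PCDH7 was at 388 and 351 CPM in the 17-month animal and at 686, 751 and 800 CPM in the 18-month animal, a log2 difference of -1.07 (SE 0.08, adjusted p = 1.80e-04). CDH8 (327 against 453 CPM, -0.53), FAT3 (1256 against 1655 CPM, -0.46), PCDH9 (6412 against 8288 CPM, -0.43) and FAT1 (21.9 against 27.6 CPM, -0.39) were lower in the 17-month animal. CDH13 was higher, at 53.6 and 66.6 against 43.3, 39.3 and 37.6 CPM (0.53), and CELSR1 was higher below 20 CPM (0.49). The libraries of the animals did not overlap in 16 of the 33 members, these 7 included, beside 48.2% of all genes. Without the first 17-month library 2 members passed, beside 2.14% of all genes, and without the second 2, beside 2.35%.

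In oligodendrocytes 7 of 27 members differed between the animals, 2 higher and 5 lower in the 17-month animal, beside 13.5% of all genes (6.3% and 7.19%). PCDH9 was at 10210 and 10620 CPM in the 17-month animal and at 13360, 13100 and 13290 CPM in the 18-month animal (log2 difference -0.36, SE 0.05, adjusted p = 6.42e-04). FAT1 was at 42.7 and 59.3 against 89.6, 88.3 and 106 CPM (-0.88), and CDH7 (-0.58), PCDH10 (-0.53) and FAT4 (-0.49) were lower in the 17-month animal too. CDH13 was at 114 and 109 against 76.1, 76.1 and 68.7 CPM (0.58), and PCDH15 was at 45.6 against 31.9 CPM (0.49). PCDH9 and FAT1 were lower, and CDH13 higher, in the 17-month animal in both cell classes, which come from the same libraries. The libraries of the animals did not overlap in 15 of the 27 members, beside 46% of all genes. Without the second 18-month library 15 members passed, beside 15.3% of all genes. PCDH10 did not pass without either 17-month library, without the third 18-month library or in nuclei with at least 1000 genes, and PCDH15 did not pass without the first 17-month library.

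Markers also differed between the animals in the same oligodendrocyte sums. Those of excitatory neurons added up to 386 and 300 CPM in the 17-month animal and to 262, 261 and 182 CPM in the 18-month animal, and those of mural cells to 48.7 and 32.1 against 29.5, 23.9 and 24.9 CPM. Oligodendrocyte markers added up to 9932 and 11320 against 11360, 11650 and 12240 CPM. None of these 3 sums overlapped between the animals, nor did that of endothelial markers (50.3 and 38.0 against 36.4, 30.6 and 35.6 CPM). The sums of precursor, astrocyte, microglial and inhibitory neuron markers did overlap. Those of precursors, in which PCDH15 was highest, were 280 and 244 against 264, 259 and 258 CPM. The part of these other cells in the differences of the members was not tested.

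Partner genes of the cadherin pathways were counted by the same thresholds. In excitatory against inhibitory neurons, beside 14.2% of all genes, 2 of 11 catenins and plakophilins passed, both lower, among them PKP2 (-3.63), a plakophilin of desmosomes. Of 8 WAVE complex genes, WASF1 (1.5) and CYFIP1 (1.06) were higher and WASF3 (-1.69) lower. Of 10 FAT, DCHS and Hippo genes 3 were lower, with DCHS2 at -1.89 and STK3 at -1.24. Of 8 secretase and metalloprotease genes none passed.

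In claustrum-like against other excitatory neurons, beside 6.76% of all genes, 2 of 10 catenins and plakophilins were higher, among them CTNNA3 (1.09), an alpha-catenin. None of 8 WAVE complex genes and none of 8 secretase and metalloprotease genes passed. Of 10 FAT, DCHS and Hippo genes 2 were lower (DCHS2 -1.62, TEAD1 -1.61), and of 9 nectin and scaffold genes 1 was lower (NECTIN1 -1.63). Of 16 other cadherin superfamily genes 1 was higher and 5 lower, among them the delta-1 protocadherin PCDH11X (-2.17).

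In endothelial cells, beside 24.5% of all genes, 7 of 10 FAT, DCHS and Hippo genes were higher and none lower, with the Hippo effectors WWTR1 at 4.69 and YAP1 at 3.70 and DCHS2 at 2.51. These were not particular to endothelial cells. Mural cells or fibroblasts also passed as higher for WWTR1 (3.88), YAP1 (3.896) and DCHS2 (4.428). Astrocytes passed as higher for WWTR1 (3.367) and YAP1 (4.126) and as lower for DCHS2 (-3.245). In oligodendrocyte precursors, beside 17.7%, 7 of 12 other cadherin superfamily genes were higher and none lower, with the desmocollin DSC3 at 5.18, PCDH11X at 3.79, the P-cadherin gene CDH3 at 3.76 and PCDH19 at 3.15. In astrocytes, beside 18%, 3 of 4 tip link partner genes were higher, among them ADGRV1, the giant receptor of the hair cell ankle link, at 7.56. In microglia, beside 21.6%, 7 of 9 nectin and scaffold genes were lower, and 6 of 10 catenins and plakophilins were lower while 2 were higher. In striatal projection neurons, beside 20%, 4 of 9 nectin and scaffold genes were lower than in interneurons, with NECTIN1 at -4.64 and NECTIN2 at -4.12, and 1 was higher.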

How the data were processed

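Nuclei of frozen claustrum were profiled by 10x 3' single-nucleus RNA sequencing in 5 libraries. The authors deposited raw UMI counts per gene and nucleus as filtered matrices. Per the file headers the software was Cell Ranger 5.0.1, and the submitters' processing notes also name CASAVA 1.8, Seurat and the builds mm10 and Mmul_10. Whether intronic reads were counted is not given in the sources used here, and no genome of that build was used, so coordinates and sequences are not given. Of 21761 genes, 16522 were named by the files and 645 by a table of identifiers.

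Nuclei with at least 500 genes were kept, 359 nuclei fell below this, and 2555 were removed as likely doublets at a rate of 0.8% per 1000 nuclei by Scrublet score. Genes were split into a part that gave clusters and names and a part of 17495 genes that was tested; all members were in the second. Nuclei were clustered on 30 components of 2000 variable genes (scanpy 1.11.5) and named from fixed markers, with thresholds on the marker score set after the clusters were seen; 2527 nuclei of small, shallow or mixed clusters were set aside or left unnamed. Counts were summed per library and class where at least 20 nuclei were present, given as CPM, and tested with edgeR 4.0.16 (R 4.3.3) on TMM-scaled counts after its filter on low counts. To pass, a member needed a log2 difference of 1 or more in size with an adjusted p below 0.05; between animals only the p counted. Up to 8 members in each direction that passed with the same direction in every library and at least 20 CPM in the higher group were named by rule; other members that passed were named after their values were seen. Counting error limits values below about 20 CPM.

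The members and lists were chosen with earlier results of these data known. Comparisons of THEMIS-type and layer 6 corticothalamic-like neurons, of E4 with E5 and of I1 were added after the data were examined. Alternatives were DESeq2 1.42.0, no filter on low counts, at least 1000 genes per nucleus, a doublet rate of 1.6% per 1000, each library left out, a replicate block and other limits for a member being on. No library duplicated another.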

Additional observations from a re-analysis of the deposited data

Results flagged for a closer look

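Each class comparison was also tested for a difference between the animals: the log2 difference between the classes in the 17-month animal minus that in the 18-month animal, by edgeR's quasi-likelihood test with Benjamini-Hochberg adjustment over all genes. Of 612 such tests of members in 22 comparisons, 28 had an adjusted p under 0.05, beside 0.698% of the tests of all genes; the comparisons share samples. In these the size of the class difference varied between animals, each animal being 1 individual of 1 age. The cause was not tested.

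In excitatory against inhibitory neurons, where 1.57% of all genes differed between animals, PCDH7 gave -0.705 and PCDH9 -0.357, while CDH9 gave 0.534 and CDH13 0.412. PCDH7 was at 728 CPM in excitatory and 746 CPM in inhibitory neurons of the 17-month animal, and at 1065 and 692 CPM in the 18-month animal.

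In claustrum-like against other excitatory neurons (0.81% of all genes), FAT3 gave -0.81, PCDH7 -0.671, CDH4 -0.484 and CDH11 0.337. FAT3 was at 1256 against 526 CPM in the 17-month animal and at 1655 against 407 CPM in the 18-month animal, so its lead in claustrum-like neurons was present in both. CDH4 was at 126 against 162 CPM in the 17-month animal and at 198 against 187 CPM in the 18-month animal. Against THEMIS-type neurons alone (0.585% of all genes) FAT1 gave -1.319, at 21.9 against 5.79 CPM in the 17-month animal and 27.6 against 2.83 CPM in the 18-month animal. Against layer 6 corticothalamic-like neurons alone (1.27%) PCDH7 gave -0.763, at 370 against 1266 CPM and 746 against 1543 CPM.

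Among claustrum-like clusters, E1 differed between animals in CDH8 (0.612) and CDH12 (0.404; 0.353% of all genes) and E2 in CDH10 (-0.421; 0.581% of all genes). CDH10 was at 402 CPM in E2 and 401 CPM in the other clusters of the 17-month animal, and at 529 and 407 CPM in the 18-month animal.

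In VIP-type neurons against the other interneuron classes (0.0407% of all genes), FAT1 gave -1.736 and CDH12 0.924. FAT1 was at 13.5 CPM in VIP-type neurons of the 17-month animal and at 32.6 CPM in those of the 18-month animal. In cluster I1 against the 4 named interneuron classes (0.105% of all genes) CDH4 gave 1.353, with I1 at 63.5 CPM in the 17-month and 27.0 CPM in the 18-month animal.

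In striatal projection neurons against interneurons (2.05% of all genes), the values were 0.835 for FAT1, -0.834 for CDH18, -0.802 for PCDH7, -0.755 for CDH7, -0.566 for CDH2 and -0.397 for PCDH9. FAT1 was at 76.1 against 43 CPM in the 17-month animal and at 34.2 against 36 CPM in the 18-month animal.

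Among glial and vascular classes, oligodendrocytes differed between animals in CDH7 (-1.79), PCDH10 (-1.135) and FAT4 (-0.747), beside 1.59% of all genes. Microglia differed in CDH20 (1.415) and CDH13 (-1.351), beside 1.33%. CDH13 in microglia was at 1118 CPM in the 17-month and 1327 CPM in the 18-month animal. Microglial CDH20 was at 24.4 and 24.3 CPM in the 17-month animal and at 6.14, 11.2 and 7.88 CPM in the 18-month animal, and at 83.1 CPM in endothelial cells. Endothelial markers in the same microglial sums added up to 704 and 712 CPM and to 376, 381 and 420 CPM, without overlap, and microglial markers to 4892 and 5622 CPM and to 6393, 6350 and 6673 CPM. Astrocyte markers added up to 1268 and 936 CPM and to 1464, 1416 and 1517 CPM, also without overlap, and CDH20 was highest in astrocytes. The part of these other cells in the CDH20 and CDH13 values was not tested.

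PCDH15 in endothelial cells gave 2.367, beside 1.93% of all genes. Endothelial PCDH15 was at 251 CPM in the first and 221 CPM in the second library of the 17-month animal, and at 61.7, 32.5 and 10.2 CPM in those of the 18-month animal. In the same endothelial sums the markers of oligodendrocyte precursors, in which PCDH15 was highest, added up to 396 and 268 CPM and to 425, 296 and 341 CPM, so they overlapped between the animals. Astrocyte markers added up to 2115 and 493 CPM and to 1128, 541 and 403 CPM, and mural markers to 934 and 1279 CPM and to 2050, 2590 and 2362 CPM. The part of these other cells in the PCDH15 levels was not tested beyond these values.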

How the results depend on the processing

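Of 2020 values of named members under alternative settings, 1945 kept their direction and side of the threshold, 70 kept the direction but no longer passed, and 5 reversed. All 5 arose when cluster I1 was counted as PVALB-type, a setting chosen after seeing the data: CDH6 -0.351, CDH4 -0.625, FAT4 -1.069, CDH9 0.429 and CDH7 0.353 in PVALB-type neurons, where 7 members instead of 14 then passed. Counts of members that passed with 1 library left out ranged from 17 to 19 in excitatory against inhibitory neurons and from 14 to 15 in claustrum-like against other excitatory neurons. They ranged from 1 to 2 in E3, with 2 without the first 17-month or the third 18-month library. Between the animals they ranged from 2 to 9 in claustrum-like neurons and from 5 to 15 in oligodendrocytes. Where 1 library of the 17-month animal remained, it was assumed to vary like those of the other animal. With a replicate block the counts between animals were 6 in claustrum-like neurons and 2 in oligodendrocytes. The share of all genes that passed in the same fits is not given beside the counts in this paragraph. The counts therefore do not show whether members changed more than other genes. In the main fits the replicate numbers were treated as sharing only a number, and the library numbers were not crossed. Deviations of same-numbered libraries from their animal's mean correlated at -0.36 and -0.05 in claustrum-like neurons and at 0.04 and -0.37 in oligodendrocytes. With 2 libraries in the 17-month animal their deviations mirror each other. These correlations therefore cannot show whether same-numbered libraries share a batch. Members on per class averaged 15.5 at limits of 10 CPM and 10% and 5.75 at 50 CPM and 50%, where the limits themselves set the number. The cause of the other changes was not tested. Members below 20 CPM, such as CELSR2, CELSR3 and PCDH20, rest on few counts, and differences among them may be missed at this depth.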
